A study of Mus musculus with 6 samples.

Results

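Potassium channel genes were described here as all protein-coding genes whose symbol begins with Kcn, chosen by name and not by any measured value. There were 92 of them among 32066 features of the deposited table. The samples were hippocampi of wild type C57BL/6J female mice aged 17 weeks, with each library labelled a biological replicate. Ovariectomy, the removal of both ovaries, was done in every mouse at 8 weeks of age. From then on the OVX mice (3 libraries) had control food, while those named OVX+RJ (3 libraries) had food with 1% royal jelly, a honeybee secretion. A sham-operated group is not analysed here, so no value below shows what ovariectomy did. The labels give neither the hour of tissue collection nor the cages.

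Potassium channels let potassium ions leave or enter cells along their gradient, which sets the resting potential of neurons, ends action potentials and limits repetitive firing. Pore-forming subunits assemble as tetramers, or as dimers in the 2-pore-domain family, and auxiliary subunits bind them and change their trafficking or gating. In hippocampus, A-type channels dampen dendritic signals, M-type and calcium-activated channels slow firing after a burst, G protein-gated channels carry slow inhibition, and astrocyte inward rectifiers take up the potassium that firing releases.

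The 6 libraries held from 34718593 to 58163779 counts each, and mitochondrially encoded genes took 6.46% to 6.91% of them. OVX+RJ 1 stood slightly apart, with a mean Pearson correlation across genes of 0.983 with the other libraries against 0.986 to 0.987 for the rest. Values without it are given beside the classes and the main members, and the ranges over each left-out library stand beside those whose value moved most. Of the 92 members, 80 passed the filter on low counts and were tested, and 12 did not. Tissue markers were in place: the summed level of 6 markers of CA1 pyramidal cells was 581 to 657 CPM (counts per 1000000 counts of the library) and that of 10 markers of dentate granule cells was 588 to 897 CPM over the libraries. In bulk tissue, fewer cells of a type and less RNA per cell cannot be told apart.

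No potassium channel gene passed the test between OVX+RJ and OVX. Among the 80 tested members, 0 had an adjusted p under 0.05 by edgeR (quasi-likelihood test, p adjusted by the Benjamini-Hochberg method over 18629 features), where 0% of all features passed. DESeq2 and limma-voom also called 0 members, where they called 0.0698% and 0% of all features. The lowest adjusted p of a member was 0.986 in edgeR, 0.631 in DESeq2 and 0.965 in limma-voom. At an unadjusted p under 0.05 there were 2 members, 1 higher (Kcnq5) and 1 lower (Kcnn2), where 4.05% of all features were under it (2.14% higher and 1.91% lower). The same count was 3 in DESeq2, with Kcnj2 as the third member, where 3.7% of all features were under it. All OVX+RJ values lay on one side of all OVX values at 4 members, Kcnma1 and Kcnd1 on the higher side and Kcnn2 and Kcng2 on the lower, where 10.5% of all features were apart (4.53% higher and 5.95% lower). Kcng2 is named after its values were seen.

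The family as a whole stayed near 0 on the log2 scale. The median log2 fold change (OVX+RJ minus OVX) was 0.015 over the 80 tested members and -0.0015 over all tested features. It was positive at 48 members and negative at 32, and over all features 49.6% were positive and 50.4% negative. With library totals in place of TMM scaling the members split 40 to 40. Without OVX+RJ 1 the median was 0.0004. The summed level of all 92 members was 5490, 5250 and 5410 CPM in OVX 1, 2 and 3 and 5440, 5350 and 5510 CPM in OVX+RJ 1, 2 and 3, so the groups overlapped. The median of the members' deviations from their own mean over the 6 libraries was negative in OVX 2 and OVX+RJ 2, at -0.038 and -0.049, and positive in the other 4, at 0.016 to 0.049. The sign of that median did not follow the diet.

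The size of difference that the data leave room for was narrow at many members. The 95% interval of the log2 fold change lay within 1.5-fold in either direction at 59 tested members and within 2-fold at 70. Only Kcnrg, a regulator of channel assembly, and Kcnmb1, the smooth muscle beta subunit of the BK channel, had a fold change above 0.5 in size on the log2 scale, and both had a mean under 1.5 CPM in each group. The median spread within groups, as the SD of log2 CPM, was 0.166 over members, 0.162 over all tested features and 0.136 over protein-coding ones. It ran from 0.029 at Kcnd1 to 1.19 at Kcne3, which had 0 to 16 counts per library. Kcne3 is named after its values were seen.

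**Figure D1:**
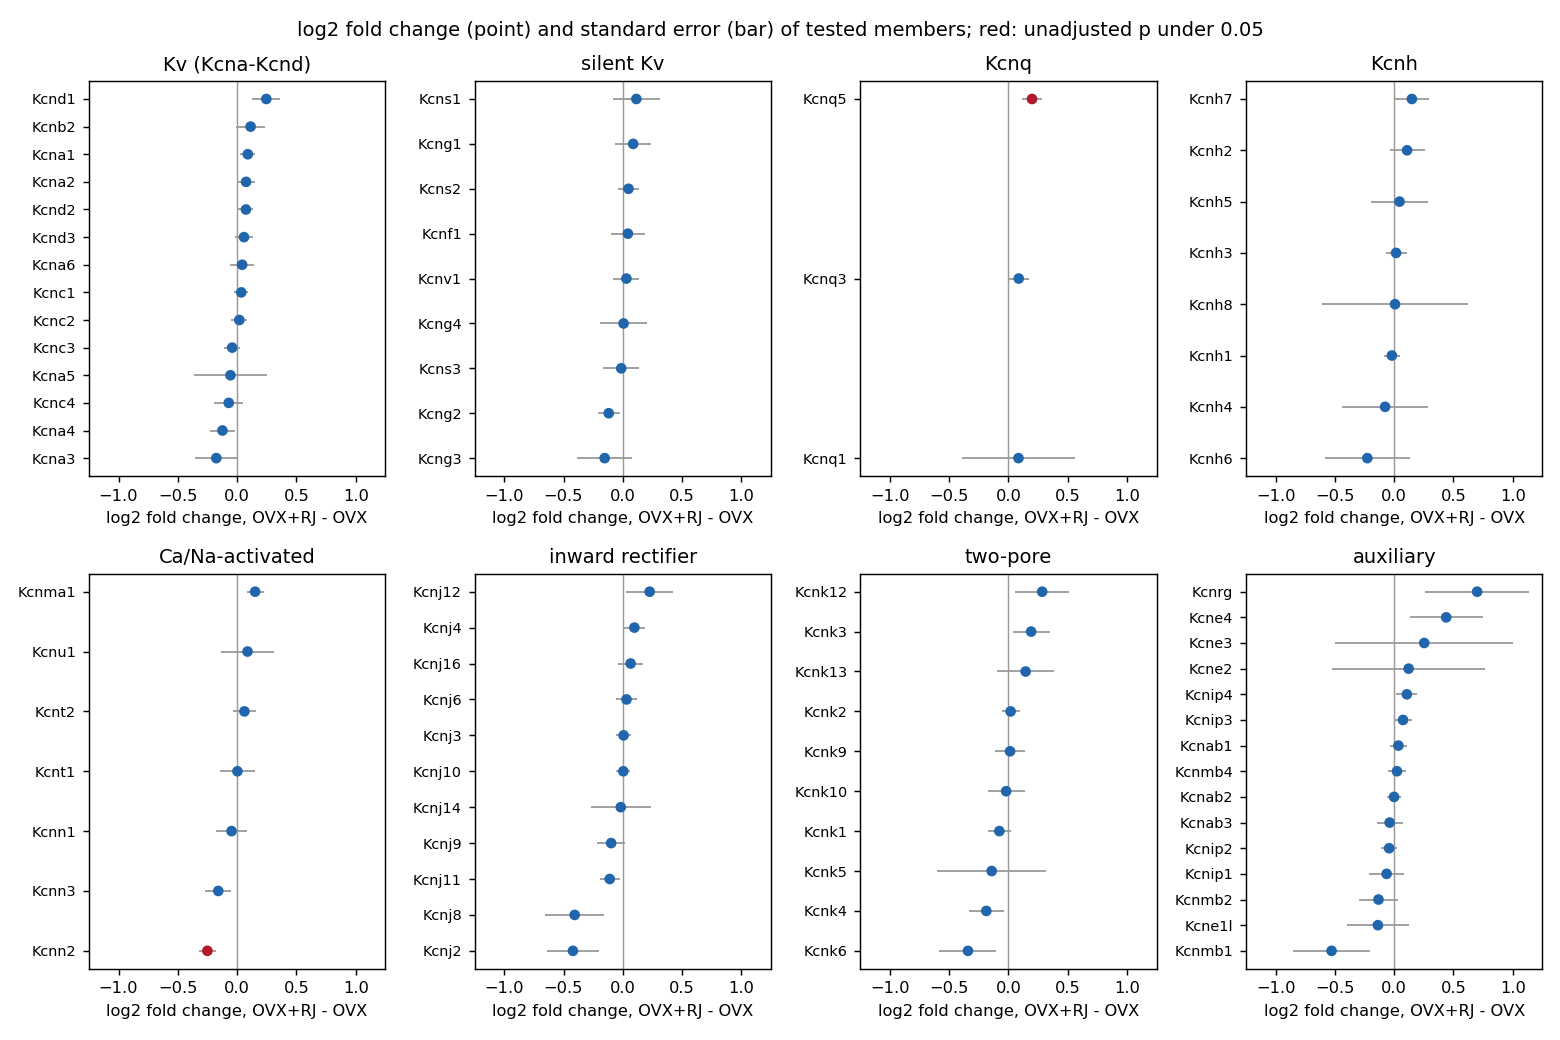
Each panel shows tested members of a class of potassium channel genes, with the log2 fold change of OVX+RJ against OVX on the horizontal axis as a point and its standard error as a bar. Red points mark Kcnq5 and Kcnn2, the members under an unadjusted p of 0.05, and most other points lie within 0.25 of 0.

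Levels differed far more between members than between diets. Per kb of transcript, a scale on which genes can be compared, the highest member was Kcnab2, a beta subunit of Shaker-type channels, at a mean of 204 CPM per kb. Kcnip2 was at 67.2, Kcnab1 at 50.1 and Kcnj3 at 37.5 CPM per kb. At least 10 CPM per kb was reached by 31 members, and 30 were under 1. The beta and KChIP subunits near the top are cytosolic proteins that bind voltage-gated channels and are not pores themselves.

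**Figure D2:**
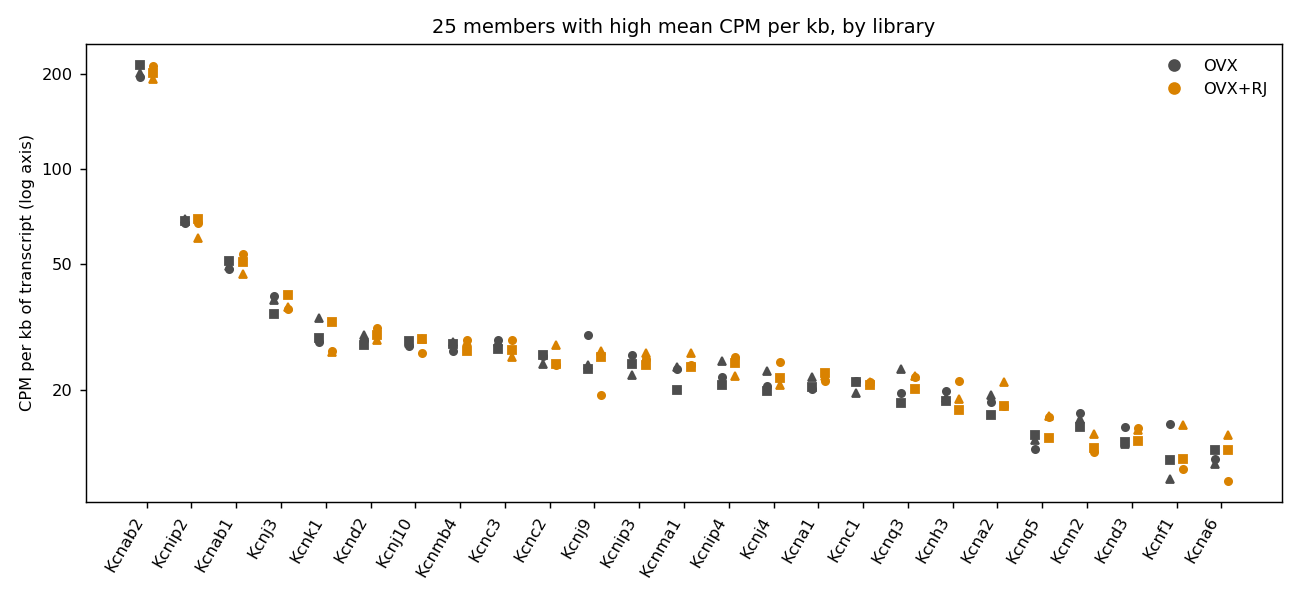
Of the members with high mean levels, 25 are shown on a log axis in CPM per kb of transcript, with 1 point per library, dark for OVX and orange for OVX+RJ and 1 marker shape per replicate number. The range across genes exceeds the distances between diets, though neighbouring genes can lie close together. Kcnab2 stands above the rest at a mean of 204, and at Kcnn2 the OVX+RJ points lie below the OVX points.

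Among voltage-gated subunits of the Kcna to Kcnd families, 15 of 17 were tested, 10 with a positive and 5 with a negative log2 fold change and a median of 0.035, or 0.023 without OVX+RJ 1. Kcnd1 encodes Kv4.1, an A-type channel. Its levels were 8.21, 8.12 and 8.37 CPM in OVX 1, 2 and 3 and 9.64, 9.53 and 9.89 CPM in OVX+RJ 1, 2 and 3. All 3 OVX+RJ libraries were above all OVX libraries, with a gap wider than the range of either group. The log2 fold change was 0.25 (SE 0.12), with an adjusted p of 0.986 in edgeR (0.0666 before adjustment), and it ran from 0.24 to 0.26 over the left-out libraries. The SE comes from a variance shared across genes of like level, and is larger than the spread among these libraries alone gives.

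Kcnd2, Kcna1, Kcna2 and Kcnc1 stood at higher levels than Kcnd1 and differed less. Kcnd2, which encodes Kv4.2 of pyramidal cell dendrites, was at 148, 143 and 153 CPM in OVX and 162, 154 and 148 CPM in OVX+RJ, with overlapping groups and a log2 fold change of 0.07 (SE 0.064), or 0.028 without OVX+RJ 1. Kcna1, an axonal Shaker-type subunit, was 88.6 ± 2.78 CPM in OVX+RJ, with 83.8 ± 4.16 CPM for OVX (SD, n = 3 each). That is a log2 fold change of 0.09 (SE 0.065). Kcna2, its usual partner in axons, was 219 ± 21.8 CPM against 209 ± 15.6 CPM. Kcnc1, the Kv3.1 subunit of fast-firing interneurons, was 163 ± 1.5 CPM against 160 ± 7.68 CPM. The 95% interval of the log2 fold change of Kcnc1 ran from -0.093 to 0.16. Other tested members of these families had log2 fold changes from -0.18 (Kcna3) to 0.11 (Kcnb2), none under an unadjusted p of 0.05.

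Silent subunits form no channel of their own and modify other voltage-gated subunits. Of 10 members 9 were tested, 6 positive and 3 negative, with a median of 0.030. The median turned to -0.018 without OVX+RJ 1. Kcnf1, the highest of them per kb, was at 74.5, 57.2 and 49.7 CPM in OVX and 53.7, 57.8 and 73.8 CPM in OVX+RJ, so both diets spanned nearly the same range. Kcng2 was at 23.9, 22.3 and 21.1 CPM in OVX and 21.0, 20.8 and 19.7 CPM in OVX+RJ. Its groups were apart by a narrow gap that closed with DESeq2 size factors and with upper quartile scaling, and its log2 fold change was -0.12 (SE 0.093).

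All 5 Kcnq genes were tested, 4 with a positive and 1 with a negative log2 fold change and a median of 0.084. Without OVX+RJ 1 the median was 0.058, with 2 negative. Kcnq3 and Kcnq5 belong to the M-channels, which hold neurons back from repetitive firing. Kcnq5 was at 90.2, 100 and 96.2 CPM in OVX and 114, 97.8 and 115 CPM in OVX+RJ. Libraries 1 and 3 of OVX+RJ were above every OVX library, and OVX+RJ 2 lay within the OVX range. The log2 fold change was 0.20 (SE 0.081), with an adjusted p of 0.986 in edgeR (0.0329 before adjustment). Over the left-out libraries it ran from 0.15, without OVX+RJ 1, to 0.28, without OVX+RJ 2. Before adjustment, edgeR gave 0.00477 to 0.125 over these.

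Kcnq3 was at 230, 215 and 275 CPM in OVX and 259, 237 and 262 CPM in OVX+RJ, a log2 fold change of 0.09 (SE 0.088). Without OVX 3, the highest OVX library, it was 0.20 with an adjusted p of 0.998 in edgeR (0.0207 before adjustment). Without OVX 2, the lowest, it was 0.014. The groups overlapped.

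The 8 Kcnh genes, of the EAG, ERG and ELK channels, were all tested, with 5 positive, 3 negative and a median of 0.012. It turned to -0.054 when OVX+RJ 1 was left out. Kcnh3, an ELK channel of forebrain neurons and the highest of them per kb, was 70.5 ± 7.73 CPM in OVX+RJ, with 70.3 ± 2.75 CPM for OVX (SD, n = 3 each). The others ran from -0.23 to 0.15 on the log2 scale.

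Of 8 genes for channels opened by internal calcium or sodium, 7 were tested, 4 positive and 3 negative, with a median of 0.0028. The median turned to -0.0018 without OVX+RJ 1, with 4 negative. This class held the member with the lowest p. Kcnn2 encodes SK2, a small-conductance calcium-activated channel of spines and dendrites that shapes the afterhyperpolarisation and synaptic plasticity. It was at 62.2, 56.1 and 59.2 CPM in OVX and 46.8, 48.0 and 53.2 CPM in OVX+RJ. Each OVX+RJ library lay below each OVX library. Means were 49.3 ± 3.37 CPM against 59.2 ± 3.04 CPM (SD, n = 3 each). That is a log2 fold change of -0.25 (SE 0.075) with a 95% interval from -0.42 to -0.087. The adjusted p was 0.986 in edgeR (0.00577 before adjustment) and 0.631 in DESeq2 (0.00341 before). With each library left out in turn the log2 fold change stayed between -0.30 and -0.22, and edgeR gave 0.00379 to 0.0291 before adjustment. Without OVX+RJ 1 it was -0.22.

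The other SK genes had smaller differences of the same sign. Kcnn3, which encodes SK3, was at 31.6, 23.5 and 28.1 CPM in OVX and 24.5, 24.2 and 25.1 CPM in OVX+RJ, a log2 fold change of -0.16 (SE 0.11). Its OVX libraries were spread widely around the OVX+RJ values. The log2 fold change was -0.27 without OVX 2 and -0.061 without OVX 1. Kcnn1, for SK1, was at -0.05 with overlapping groups, and at -0.0018 without OVX+RJ 1. Over the left-out libraries it ran from -0.16 to 0.05, so its sign was not stable. Kcnn4, whose channel is known from blood cells and epithelia, drew 12, 13 and 8 counts in the OVX libraries, against 1, 9 and 0 with royal jelly, and was under the filter. The summed level of the 4 Kcnn genes was 108, 91.2 and 102 CPM in OVX and 83.2, 86.4 and 91.0 CPM in OVX+RJ, which nearly touched.

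Kcnma1 encodes the pore of the BK channel, opened by calcium and voltage together. It was at 282, 242 and 285 CPM in OVX and 289, 286 and 317 CPM in OVX+RJ. OVX+RJ values were above OVX values by a gap that closed with DESeq2 size factors and with upper quartile scaling. The log2 fold change was 0.15 (SE 0.071), with an adjusted p of 0.986 in edgeR (0.0572 before adjustment) and 0.965 in limma-voom (0.0476 before). Over the left-out libraries it ran from 0.082, without OVX 2, to 0.20, without OVX 3. Its neuronal beta subunit gene Kcnmb4 had a log2 fold change of 0.024 (SE 0.078), which turned to -0.011 without OVX+RJ 1. Sodium-activated Kcnt1 and Kcnt2 were at 0.0028 and 0.062, and at -0.058 and 0.14 without OVX+RJ 1.

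**Figure D3:**
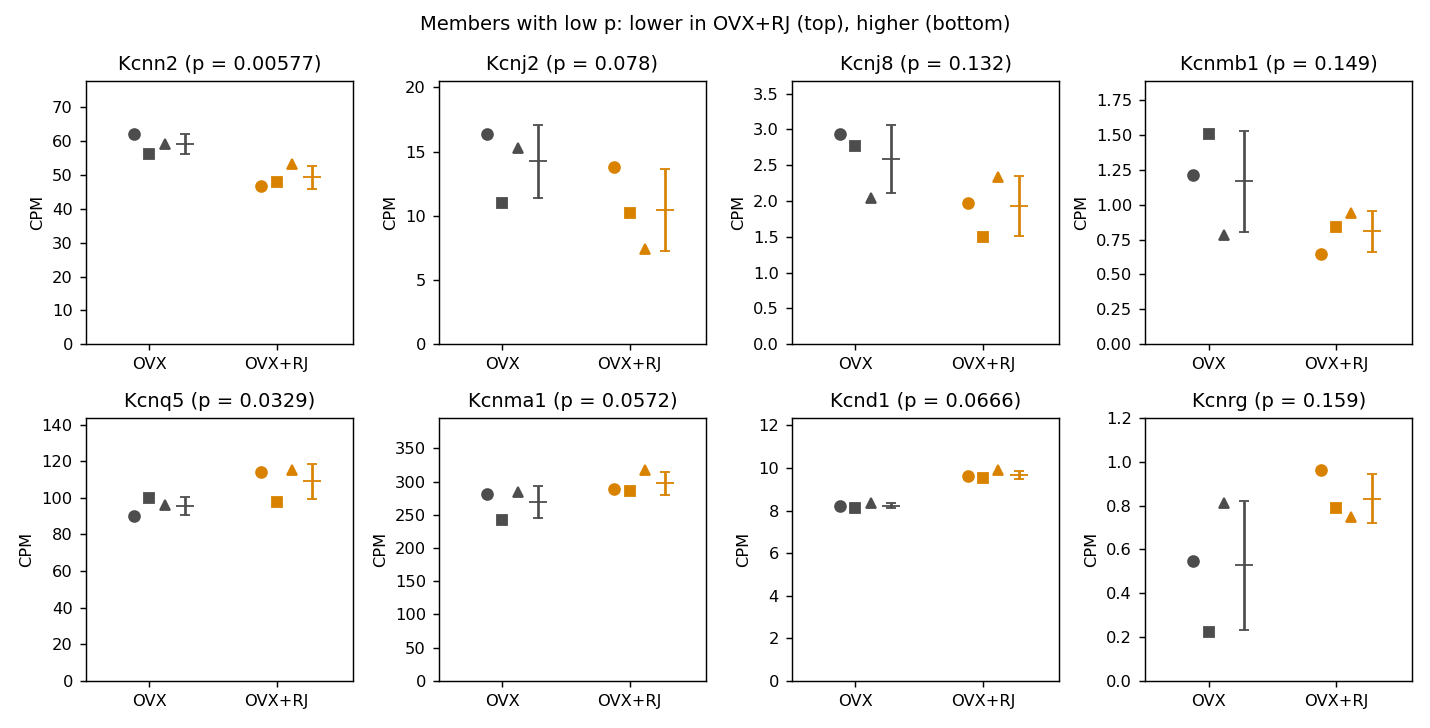
Levels in CPM are shown per library for 4 members with low p and lower values in OVX+RJ (top) and 4 with low p and higher values (bottom), with markers for replicate numbers and bars for the mean and SD of 3 libraries. Kcnn2 and Kcnd1 are the panels where the groups are clearly apart, and the Kcnj2, Kcnj8, Kcnmb1, Kcnq5 and Kcnrg panels overlap.

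Of 14 inward rectifier genes 11 were tested, 6 positive and 5 negative, with a median of 0.0043, or 0.014 without OVX+RJ 1. Kcnj3, Kcnj6 and Kcnj9 encode the G protein-gated (GIRK) channels of slow inhibition. Kcnj3 was 195 ± 10.9 CPM in OVX+RJ, with 196 ± 13.2 CPM for OVX, Kcnj6 was 43.4 ± 1.51 CPM against 42.8 ± 3.80 CPM, and the log2 fold change of Kcnj9 was -0.10 (SE 0.12). It turned to 0.024 without OVX+RJ 1, the library lowest in Kcnj9. Kcnj10, the astrocyte channel Kir4.1, was at 149, 154 and 152 CPM in OVX and 141, 156 and 156 CPM in OVX+RJ, with a 95% interval of the log2 fold change from -0.12 to 0.13. Kcnj11, the pore of neuronal ATP-sensitive channels, was 29.2 ± 1.51 CPM against 31.8 ± 1.57 CPM, with a log2 difference of -0.11 (SE 0.085).

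Kcnj2 encodes Kir2.1, a strong rectifier that stabilises the resting potential. It was at 16.4, 11 and 15.3 CPM in OVX and 13.8, 10.2 and 7.45 CPM in OVX+RJ. The groups overlapped, with OVX 2 below OVX+RJ 1. The log2 fold change was -0.42 (SE 0.22), with an adjusted p of 0.986 in edgeR (0.078 before adjustment). Without OVX+RJ 1 it was -0.68, with an adjusted p of 0.978 in edgeR (0.00389 before), where 4.53% of all features had an unadjusted p under 0.05. Without OVX+RJ 3 it was -0.22, and the largest p before adjustment over the left-out libraries was 0.288 in edgeR. The other members under 0.05 without OVX+RJ 1 were Kcnn2, Kcnh6 at -0.75 and Kcnv1 at 0.16. Kcnh6 and Kcnv1 are named after their values were seen.

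Kcnj8 and Kcnmb1, named for their low p, encode channel subunits found in vessel walls. Kcnj8, the pore of ATP-sensitive channels in pericytes and smooth muscle, was at 2.94, 2.77 and 2.04 CPM in OVX and 1.97, 1.5 and 2.33 CPM in OVX+RJ, a log2 fold change of -0.41 (SE 0.25) with overlapping groups, and of -0.25 without OVX+RJ 2. Kcnmb1 was at 1.21, 1.51 and 0.785 CPM in OVX and 0.650, 0.838 and 0.942 CPM in OVX+RJ, a log2 fold change of -0.53 (SE 0.33), also with overlap, and of -0.28 without OVX 2. Other members that vessel cells also use went both ways, with Kcnma1 at 0.15, Kcne4 at 0.44, Kcnk3 at 0.19 and Kcnj2 at -0.42. Without OVX+RJ 1 these were 0.16, 0.19, 0.0041 and -0.68. They are not a full list of such members, and vessel cells are not their only source in this tissue. Kcnk3 is named after its value was seen. Abcc9, the regulatory partner of Kcnj8, was at -0.13 (SE 0.16). In the same libraries, 6 of 8 pericyte and smooth muscle markers had negative log2 fold changes, and their summed level was 182 to 190 CPM in OVX and 163 to 172 CPM in OVX+RJ. Of 8 endothelial markers 7 were negative, at a summed 256 to 271 CPM against 215 to 240 CPM. In each of these lists, 2 markers had an unadjusted p under 0.05 in edgeR, all lower and none called. Over all features, 1.91% were under it and lower. No marker of either list was at 0 in any library. The part of vessel cell content in the values of Kcnj8, Kcnmb1 and Kcnj2 was not tested.

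**Figure D4:**
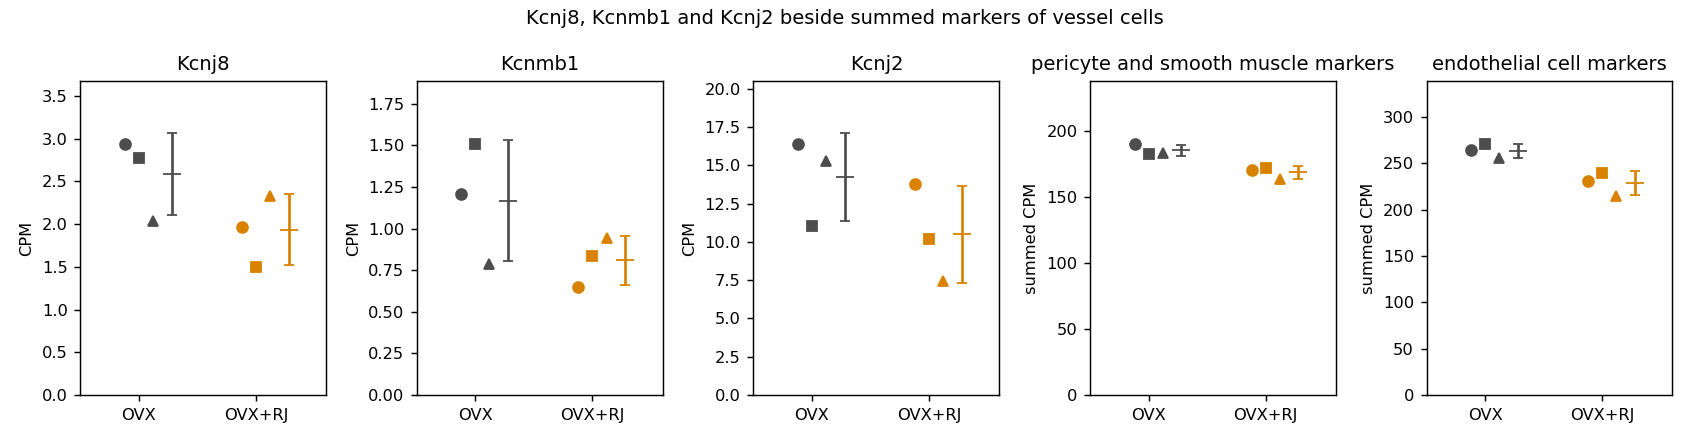
Levels of Kcnj8, Kcnmb1 and Kcnj2 in CPM are set beside the summed CPM of 8 pericyte and smooth muscle markers and of 8 endothelial markers, 1 point per library with the mean and SD of 3. The marker sums are apart between the diets, at 182 to 190 against 163 to 172 CPM and at 256 to 271 against 215 to 240 CPM, and the 3 channel genes overlap.

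The choroid plexus, which can be carried along when hippocampus is dissected, uses Kcnj13 and Kcne2. Kcnj13 drew 8, 10 and 8 counts in the OVX libraries, against 9, 7 and 3 with royal jelly, and was not tested. Kcne2 was at 0.346, 0.224 and 0.0982 CPM in OVX and 0.0520, 0.305 and 0.360 CPM in OVX+RJ. Neither set apart the diets. The 12 choroid plexus markers summed to 126 to 205 CPM in OVX and 148 to 235 CPM in OVX+RJ, 7 of the 10 tested were positive, Otx2 was at 0 in OVX 1 and Slc4a5 at 0 in OVX+RJ 1. Enpp2, at 98.2 to 177 CPM, held most of that sum. Of the 10 tested markers 3 had an unadjusted p under 0.05 in edgeR, all higher and none called. Over all features, 2.14% were under it and higher. Ttr, the main secreted protein of choroid plexus, was at 1.87, 8.49 and 6.43 CPM in OVX and 4.96, 14.4 and 23.2 CPM in OVX+RJ. Clic6 had a mean of 3.15 CPM with royal jelly, against 1.01 CPM, and F5, whose groups were apart, 1.46 against 0.884 CPM. The part of choroid plexus content in the values of Kcne2 and Kcnj13 was not tested.

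Genes of 2-pore-domain channels carry the leak current of the resting membrane. Of 13, 10 were tested, 5 on each side, with a median of -0.0033, or -0.017 without OVX+RJ 1. Kcnk1, or TWIK-1, the highest per kb, was at 63.1, 65.0 and 75.5 CPM in OVX and 59.3, 73.4 and 58.9 CPM in OVX+RJ, a log2 fold change of -0.08 (SE 0.099). Kcnk12 (THIK-2) was 7.41 ± 1.83 CPM in OVX+RJ, with 6.13 ± 1.52 CPM for OVX, and Kcnk6 (TWIK-2) was 2.89 ± 0.825 CPM against 3.69 ± 0.609 CPM (SD, n = 3 each). Both had overlapping groups. Without OVX+RJ 1 the log2 fold change of Kcnk12 was 0.082 against 0.28 with all libraries, and that of Kcnk6 was -0.14 against -0.34.

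Of 17 auxiliary subunit genes 15 were tested, 8 positive and 7 negative, with a median of 0.024. The median turned to -0.047 without OVX+RJ 1, with 10 of them negative. Kcnab2 was at 771, 841 and 793 CPM in OVX and 832, 792 and 760 CPM in OVX+RJ, with a 95% interval of the log2 fold change from -0.13 to 0.13. Kcnab1 was 164 ± 12.1 CPM in OVX+RJ, with 161 ± 4.38 CPM for OVX. Of the KChIP proteins that bind Kv4 channels, Kcnip3, also known as the transcriptional repressor DREAM, was 68.5 ± 3.05 CPM against 65.6 ± 4.72 CPM, and Kcnip4 was 57.2 ± 4.11 CPM against 53.6 ± 4.79 CPM. The log2 fold change of Kcnip4 was 0.11, or 0.049 without OVX+RJ 1. Kcne4, a small membrane subunit, was 1.41 ± 0.382 CPM against 1.04 ± 0.236 CPM, with a log2 difference of 0.44 (SE 0.31) that was 0.19 without OVX+RJ 1. Kcnrg was at 0.547, 0.224 and 0.810 CPM in OVX and 0.961, 0.787 and 0.748 CPM in OVX+RJ, where OVX 3 reached into the OVX+RJ range. Its log2 fold change was 0.70 (SE 0.44), and it was 0.30 without OVX 2 and 1.18 without OVX 3.

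**Figure D5:**
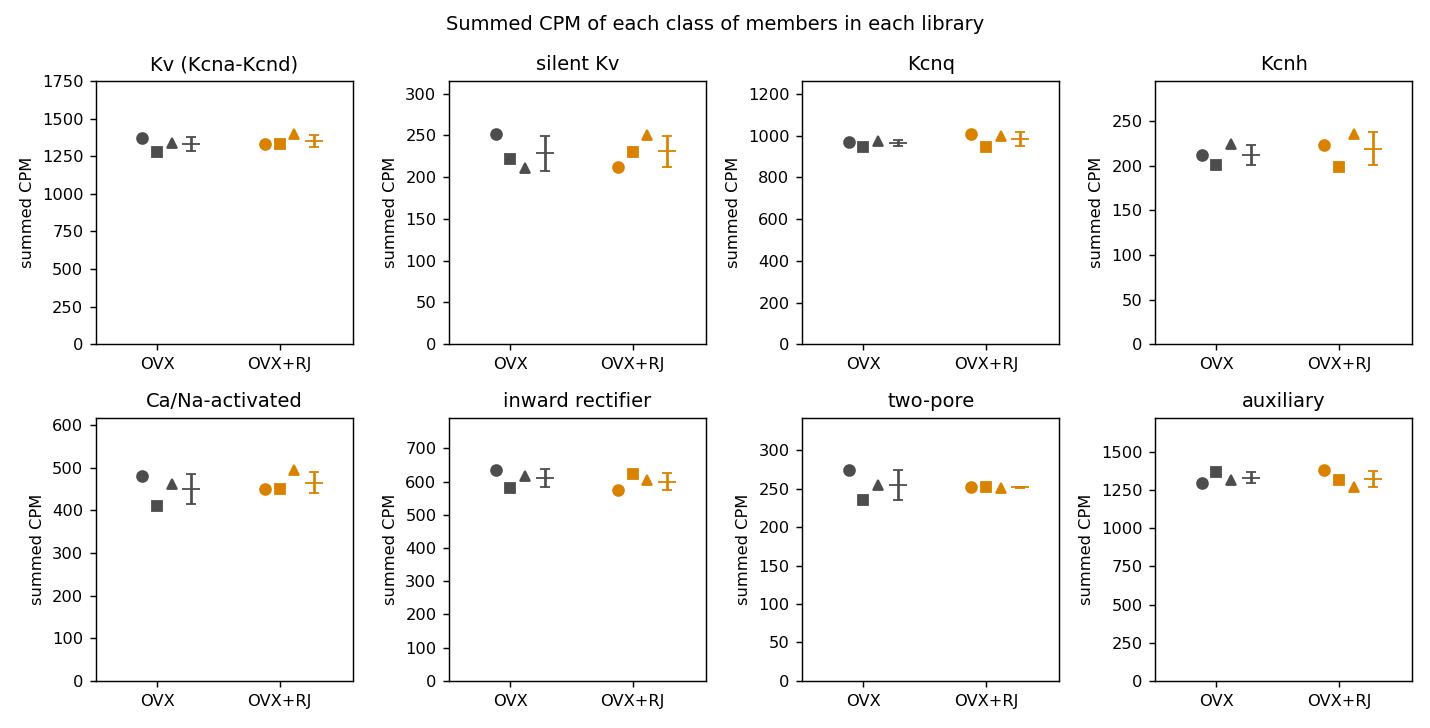
The summed CPM of each class of members is shown per library, with markers for replicate numbers and bars for the mean and SD of 3 libraries. Values of the diets overlap in each of the 8 classes, for example 1280 to 1370 CPM in OVX and 1330 to 1400 CPM in OVX+RJ for the Kcna to Kcnd subunits.

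The 12 members under the filter had at most 66 counts over the 6 libraries together. They were Kcna7, Kcna10, Kcne1, Kcnj5, Kcnj13, Kcnj15, Kcnk7, Kcnk15, Kcnk18, Kcnmb3, Kcnn4 and Kcnv2. Kcnj15, Kcnk15 and Kcnmb3 each had 2 counts in OVX+RJ 2 and 0 elsewhere. A count of 0 allows up to 3 counts, or 0.0516 to 0.0864 CPM depending on the library, for counting error only.

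Genes outside the family were measured for comparison. Of 18 genes for auxiliary, scaffold and regulatory partners, 13 were positive and 5 negative, their median log2 fold change was 0.038, and edgeR called 0. The lowest p in each direction belonged to Cntnap2, which clusters axonal Kv1 channels, at 157 ± 10.5 CPM in OVX+RJ, with 143 ± 8.16 CPM for OVX, and to Lrrc55, a BK gamma subunit, at 11.3 ± 2.53 CPM against 13.9 ± 0.904 CPM. Without OVX+RJ 1 the log2 fold change of Cntnap2 was 0.076 against 0.14, and that of Lrrc55 -0.13 against -0.29. Dpp6, the Kv4 partner, was 366 ± 24.2 CPM against 362 ± 9.04 CPM. Of 13 genes for the sodium-potassium pump and cation-chloride cotransport, 7 were positive and 6 negative, with a median of 0.0096, which turned to -0.016 without OVX+RJ 1, and 0 called. Atp1b3, a pump beta subunit, was 77.5 ± 1.87 CPM against 73.1 ± 4.13 CPM, and the cotransporter gene Slc12a7 was 3.49 ± 0.799 CPM against 4.46 ± 0.634 CPM. Voltage-gated calcium, sodium and HCN channel genes, 39 of 43 tested, had 29 positive and 10 negative log2 fold changes with a median of 0.038, or 0.016 without OVX+RJ 1. The difference between those genes and the Kcn members was not tested.

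Genes that neurons switch on with activity were also measured. All 6 immediate early genes listed (Fos, Junb, Egr1, Egr2, Arc and Nr4a1) had positive log2 fold changes with groups that did not overlap, where 4.53% of all features were apart and higher. They summed to 252 to 278 CPM in OVX and 356 to 425 CPM in OVX+RJ. None was called, with adjusted p from 0.121 to 0.986 in edgeR. All 10 dentate granule cell markers had negative log2 fold changes, with a median of -0.17. They summed to 675 to 897 CPM in OVX and 588 to 863 CPM in OVX+RJ. Of these markers 3 had an unadjusted p under 0.05 in edgeR, all lower and none called. Over all features, 1.91% were under it and lower. The part of either in the values of Kcnn2, Kcnd1 or Kcnma1 was not tested. The median log2 fold changes of the markers of CA1, CA2 and CA3 pyramidal cells, interneurons, astrocytes, oligodendrocytes and their precursors, microglia and thalamus lay between -0.075 and 0.091. Those of CA1 and of CA2 and CA3 turned, when OVX+RJ 1 was left out, from 0.031 to -0.028 and from 0.085 to -0.049.

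Promoters are shown for members with single start windows and low p on either side, Kcnma1 and Kcnj2. A Kcnip4 window is added because it held a match to the searched letters TGANTCA, with T in place of N. RefSeq windows on GRCm38.p6, from 250 bases before to 50 after each start, matched 67 of the 92 members (92 windows). The printed stretches end at the start site, read 5′ to 3′ on the gene's strand, and have motif matches in capitals. They lie at chr14:24004206-24004455 (minus strand), chr11:111065914-111066163 (plus strand) and chr5:49285660-49285909 (minus strand).
Kcnma1: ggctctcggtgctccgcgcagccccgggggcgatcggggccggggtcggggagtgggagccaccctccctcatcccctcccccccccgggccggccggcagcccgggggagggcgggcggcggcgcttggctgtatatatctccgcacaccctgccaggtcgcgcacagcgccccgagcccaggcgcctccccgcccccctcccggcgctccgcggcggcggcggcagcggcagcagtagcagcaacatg
Kcnj2: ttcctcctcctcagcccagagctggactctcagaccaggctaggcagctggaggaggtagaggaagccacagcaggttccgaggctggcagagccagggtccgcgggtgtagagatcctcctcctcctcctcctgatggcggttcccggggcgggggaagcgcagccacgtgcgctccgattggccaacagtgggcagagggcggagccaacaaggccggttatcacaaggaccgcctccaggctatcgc
Kcnip4: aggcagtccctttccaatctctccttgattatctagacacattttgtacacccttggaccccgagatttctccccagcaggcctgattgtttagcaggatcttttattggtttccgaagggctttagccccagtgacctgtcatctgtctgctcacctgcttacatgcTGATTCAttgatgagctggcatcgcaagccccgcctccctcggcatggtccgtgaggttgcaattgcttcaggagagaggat
The Kcnma1 stretch is 79.2% G and C and the Kcnj2 stretch 65.6%, against 51.2% for the Kcnip4 stretch, and the median over whole windows was 58.2% for members and 52.7% for all genes. The letters TGANTCA, with N for any base, are wider than the AP-1 motif of the Fos and Jun factors. Searched on both strands, they were in 4 of the 92 member windows (4.35%) and in 7.81% of all 32851 windows. The member windows were those of Kcnip4, Kcnip3, Kcne3 and Kcnk2. The Egr motif GCGTGGGCG and the cAMP response element TGACGTCA were in 0 member windows and in 0.612% and 1.79% of all windows. The letters TATAAA were in 5 member windows (5.43%) and in 13.6% of all windows. A match is a description of letters, and none of these members passed the test.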

How the data were processed

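Poly(A) RNA of hippocampus was sequenced in 6 libraries, 3 in each group. Per the submitters' processing notes, the tools were HISAT2 2.2.1, StringTie 2.2.1, fastp 0.23.4 and bcl2fastq 2.19, and the build was GRCm39, with no roles given. Neither the counting tool and its strand setting nor the annotation release is given in the sources used here. The deposited values are the authors' expected counts per gene symbol, not scaled between libraries. Values at 51 of 32067 rows were not whole and were rounded for the tests. A row that names no gene, at most 1.15e-05% of a library's counts, was left out.

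CPM were counts scaled to a total of 1000000 over all other rows. Tests used R 4.3.3 and edgeR 4.0.16: filterByExpr on the groups (18629 features kept), TMM factors from 0.978 to 1.01, glmQLFit and glmQLFTest, with Benjamini-Hochberg adjustment over all tested features and a threshold of 0.05. Standard errors and 95% intervals of log2 fold changes are limma 3.58.1's moderated ones, from log2 CPM (prior count 2). DESeq2 1.42.0 and limma-voom were alternatives, with other scalings, filters, a replicate block and each library left out. The edgeR test was checked on simulated data. It called 48.9% of simulated 1.5-fold changes, 69.6% of 2-fold and 92.6% of 4-fold ones, and 0.038% of unchanged features. The simulated counts gave genes of like level the same variance, without the differences between genes that real data hold. These rates are thus not the power of the test at a given member. An exact two-sided permutation test with 3 libraries a group has 0.1 as its smallest p, so none was run. Levels between genes are CPM per kb of the longest protein-coding transcript in GENCODE M21 (GRCm38), found for all 92 members.

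Genes named are the 8 members per direction with the lowest p, the member of each class with the highest CPM per kb, 18 members of prior interest, and the lowest p in each direction of 2 lists outside the family. Others were chosen after their values were seen and are marked so or complete a class or subfamily. Some genes this rule names are not reported here. Members and lists were chosen with earlier results of these data known. Depth was 34718593 to 58163779 counts per library, which limits precision at low members. The main tests did not treat replicate numbers as pairs, and whether these numbers pair the samples is not known.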

Additional observations from a re-analysis of the deposited data

How the results depend on the processing

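No alternative called any member at an adjusted p of 0.05, over 9 other fits and scalings and 6 left-out libraries. The count at an unadjusted p under 0.05 was 2, and 1 to 4 with a library left out, where 3.26% to 5.88% of all features were under it. Members with groups apart numbered 4, 2 with DESeq2 size factors and 2 with upper quartile scaling, and 9 to 16 with a library left out, where 18.8% to 22.2% of all features were apart, and 10.1% under each of those scalings. With the replicate number as a block (replicate block) 3 members had an unadjusted p under 0.05, Kcnn2, Kcnj2 and Kcnma1, against 2 without it, where 3.58% of all features were under it. The block rests on a shared number only: deviations of same-numbered libraries correlated at 0.046, -0.0024 and 0.0031, and 2 of 6 libraries correlated best with their own number. Of 29 named genes, signs turned near 0: Kcnab2 at 0.0004 with DESeq2, 0.0004 with DESeq2 size factors and 0.0024 with a mean of at least 50 counts, Kcne2 at -0.065 with limma-voom, with library totals Kcnj10 at -0.0061 and Kcnj3 at -0.0043, and with at least 1 count Kcnj10 at -0.0049 and Kcnj3 at -0.0019. With a library left out, log2 fold changes spanned 0 for Kcnab1 (-0.029 to 0.096), Kcnab2 (-0.047 to 0.037), Kcne2 (-0.28 to 0.59), Kcnh3 (-0.084 to 0.092), Kcnj10 (-0.015 to 0.041), Kcnj3 (-0.046 to 0.039), Kcnj6 (-0.033 to 0.10), Kcna2 (-0.0026 to 0.13), Kcnf1 (-0.097 to 0.21) and Kcnk1 (-0.18 to 0.012). The family's median ran from -0.013 to 0.049. The cause of these changes was not tested. Counts per library limit members under about 1 CPM.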

Other observations

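Noncoding genes with Kcn symbols were outside the family as defined. Kcnd3os, transcribed opposite Kcnd3, drew 33, 56 and 46 counts in the OVX libraries, against 56, 54 and 42 with royal jelly. The levels were 1.01 ± 0.0996 CPM in OVX, with 1.33 ± 0.150 CPM for OVX+RJ (SD, n = 3 each), with a log2 fold change of 0.40 (SE 0.27). Kcnd3 itself was at 0.058 (SE 0.072). Kcnq1ot1, the imprinted RNA antisense to Kcnq1, was at 15.2, 8.41 and 14.6 CPM in OVX and 8.50, 13.3 and 12.0 CPM in OVX+RJ. Kcnmb4os2 was at 1.90, 3.59 and 1.40 CPM in OVX and 4.24, 3.00 and 2.13 CPM in OVX+RJ. Kcnab3os had at most 15 counts in a library, and Kcnmb4os1 drew 1, 4 and 0 counts in the OVX libraries, against 4, 15 and 6 with royal jelly. Without a known strand setting for the counting, reads of these genes and of their coding partners may be shared. None had an adjusted p under 0.05 among those tested in edgeR.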
